A study of Mus musculus with 6 samples.

Results

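The NF-κB genes measured here were the 5 Rel family subunits, Nfkb1, Nfkb2, Rela, Relb and Rel, and 5 genes grouped as inhibitors. The inhibitors were Nfkbia, Nfkbib, Nfkbie, Nfkbiz and Tnfaip3. The grouping is not strict, since the product of Nfkbiz also helps to switch on genes. All genes were taken by gene symbol from the table of expected counts, where all 10 were found among 15168 genes. All 10 were among the 11878 genes abundant enough to be tested. The cells were macrophages (live CD45+ CD11b+ CD64+ F4/80+ cells by the methods of the study) sorted from full-thickness excisional wounds of the back skin 3 days after wounding, from female C57BL6/J wild-type mice. 3 samples came from young mice of 12 weeks and 3 from aged mice of 24 months, and each sample carried a set letter, A, B or C, that was used at both ages. The labels do not say how many mice were pooled in a sample or whether samples of an age came from separate mice, so p-values measure only the spread between these samples, which may be technical. The question was whether the subunits and their inhibitors differed between aged and young wound macrophages, and by how much relative to each other.

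NF-κB is a family of transcription factors that bind DNA as pairs of Rel proteins. In resting cells IκB proteins hold these pairs in the cytoplasm, and signals from Toll-like, IL-1 and TNF receptors lead to IκB destruction, so that the pairs enter the nucleus and switch on cytokine, chemokine and survival genes. Several of the inhibitors are themselves NF-κB targets, which makes them part of a negative feedback loop, and in macrophages this loop shapes how long an inflammatory response lasts.

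Start regions of the genes are shown because the feedback loop runs through binding sites in them. RefSeq start windows (250 bases before to 50 after an annotated start, build GRCm38.p6, which is mm10) were found for 7 of the 10 genes, in 10 windows. Nfkb1, Relb and Nfkbiz had no entry. A window was searched on both strands for the kappa B consensus, and matches stand in capitals. The Nfkbia window (chr12:55492598-55492897, minus strand) held 1 match, whose first base lay at position -29 from the start. The first Nfkb2 window (chr19:46304487-46304786, plus strand) held 3, at positions -39, -38 and -11, and the matches at -39 and -38 overlap. The first Tnfaip3 window (chr10:19015361-19015660, minus strand) held 2, at -125 and -12.
Nfkbia: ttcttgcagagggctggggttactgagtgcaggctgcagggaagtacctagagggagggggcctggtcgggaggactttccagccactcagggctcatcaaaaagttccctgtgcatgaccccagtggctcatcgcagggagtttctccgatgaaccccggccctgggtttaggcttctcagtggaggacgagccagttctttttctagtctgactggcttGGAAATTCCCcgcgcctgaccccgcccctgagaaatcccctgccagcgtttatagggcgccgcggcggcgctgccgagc
Nfkb2: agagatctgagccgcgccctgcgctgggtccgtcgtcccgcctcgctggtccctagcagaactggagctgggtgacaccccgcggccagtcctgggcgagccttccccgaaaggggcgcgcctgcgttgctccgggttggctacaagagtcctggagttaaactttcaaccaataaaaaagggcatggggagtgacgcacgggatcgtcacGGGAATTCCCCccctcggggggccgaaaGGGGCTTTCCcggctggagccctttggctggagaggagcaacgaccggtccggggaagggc
Tnfaip3: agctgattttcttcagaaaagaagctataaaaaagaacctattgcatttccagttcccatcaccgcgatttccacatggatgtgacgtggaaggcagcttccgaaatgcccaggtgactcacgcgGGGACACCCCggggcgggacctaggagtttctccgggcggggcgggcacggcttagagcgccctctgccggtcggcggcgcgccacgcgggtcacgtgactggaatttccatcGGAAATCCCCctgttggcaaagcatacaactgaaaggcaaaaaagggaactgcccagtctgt

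In the Rel window (chr11:23770920-23771219, minus strand) the overlapping matches were GGGAAATCCC at -92 and GGAAATCCCC at -91, and in the Nfkbie window (chr17:45555450-45555749, plus strand) the match was GGGGGATTCC at -106. The other Nfkb2 windows overlap and share 1 site, GGGACTTTCC at chr19:46305705-46305714, and one of them also held GGAATGTCCC at -236 from its start. No match was in the windows of Rela and Nfkbib or in the second Tnfaip3 window, which says only that these letters were not there. A match was thus present for 5 of 7 genes and in 7 of their 10 windows (the shared Nfkb2 site counted in both), against 8.46% of all 32851 windows, and 1.22% of all windows held matches at 2 or more places. A looser motif that contains the consensus, GGGNNNNNCC on either strand, was in 50.8% of all windows. In the test of age below, Nfkbia and Nfkb2 had matches and passed, Rel, Nfkbie and Tnfaip3 had matches and did not pass, Rela had none and passed, and Nfkbib had none and did not pass.

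All 10 genes had a higher mean in aged than in young macrophages, and 6 of 10 passed the test (adjusted p under 0.05 in edgeR's quasi-likelihood F test, with Benjamini-Hochberg correction across the 11878 genes). These were 4 of 5 subunits, Nfkb1, Nfkb2, Rela and Relb, and 2 of 5 inhibitors, Nfkbia and Nfkbiz. Over all genes tested, 9.73% passed as higher in aged samples and 7.97% as lower. None of the 10 NF-κB genes passed as lower by edgeR, and 0 did so at an unadjusted p under 0.05, with DESeq2 or with limma-voom. 3 genes passed with more than a 2-fold rise, Nfkb1, Nfkb2 and Nfkbia, against 4.59% of all genes tested. For 9 of 10 genes, all but Rel, every aged sample lay above every young sample, which held for 19.2% of all genes tested. The median log2 fold change (aged against young) was 0.94 over the subunits and 0.70 over the inhibitors, beside -0.02 over all genes tested. In this bulk measurement, a change in the share of a cell type and a change in RNA per cell cannot be told apart.

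**Figure D1:**
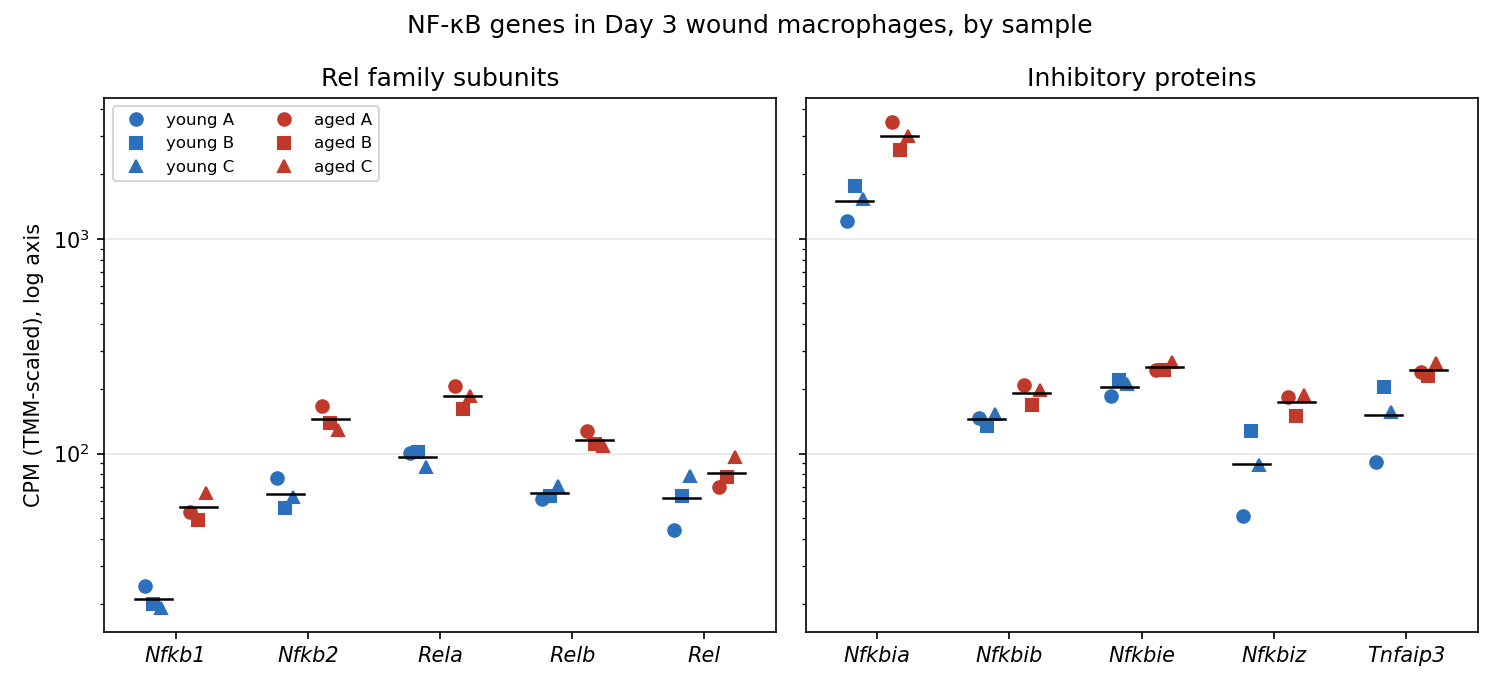
CPM (TMM-scaled counts, log axis) of the 5 subunits and 5 inhibitory proteins in each of the 3 young and 3 aged samples, with marker shape for the set letter and a bar at each group's mean. Rel is the 1 gene whose ages overlap, and young A is the lowest sample for Relb, Rel, Nfkbia, Nfkbie, Nfkbiz and Tnfaip3.

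Nfkb1 encodes p105, which is processed to the p50 subunit, and had the largest fold change of the 10 genes. Its level was 24.1, 19.9 and 19.2 CPM (counts scaled to the size of each library) in young samples A, B and C, and 53.3, 49.2 and 65.7 CPM in aged samples A, B and C. The lowest aged sample was thus well above the highest young sample. Means were 21.1 ± 2.63 and 56.1 ± 8.59 CPM (SD, n = 3), a log2 fold change of 1.41 (95% interval 1.01 to 1.81, standard error 0.18, edgeR adjusted p = 0.00242). Of all genes tested, 97.4% had a smaller log2 fold change. Nfkb1 lies on the minus strand at chr3:135584655-135691547. The gene model Gm43430 lies within its locus and held 5 to 28 counts per sample beside 290 to 1064 counts of Nfkb1.

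Nfkb2 encodes p100, which is processed to p52 and pairs with RelB in the non-canonical arm of the pathway. Young samples A, B and C held 76.9, 55.5 and 62.4 CPM of Nfkb2, and aged samples held 166, 139 and 129 CPM. The ages did not overlap, and set A was the highest sample at both ages. Nfkb2 rose from 65.0 ± 10.9 to 145 ± 19.0 CPM (log2 fold change 1.15, 95% interval 0.75 to 1.56, edgeR adjusted p = 0.00561). Its locus (chr19:46304320-46312385, plus strand) overlaps the opposite-strand RNA 4833438C02Rik, and the library kit does not mark strand. That RNA held 248 to 448 counts, a log2 fold change of 0.47 (edgeR adjusted p = 0.138), beside 945 to 2367 counts of Nfkb2, and its share in the Nfkb2 count was not tested.

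Relb, the partner of p52, had levels of 61.6, 63.2 and 70.7 CPM in the young and of 127, 111 and 109 CPM in the aged samples. Its young and aged samples were separate and each age was tightly grouped, with coefficients of variation of 7.41% and 8.49%. Relb rose from 65.2 ± 4.83 to 116 ± 9.82 CPM (log2 fold change 0.83, 95% interval 0.49 to 1.17, edgeR adjusted p = 0.0102). Relb lies at chr7:19606217-19629438 on the minus strand. The log2 ratio of Nfkb2 to Relb within a sample was 0.33 higher in aged samples, and the samples of both ages overlapped (exact two-sided permutation test, p = 0.3). With single samples left out, this difference ran from 0.25 (without young B) to 0.50 (without young A).

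Rela encodes p65, the main activating subunit of the canonical arm. The young samples measured 101, 101 and 87.0 CPM and the aged samples 207, 162 and 186 CPM, and the ages did not overlap. Rela (chr19:5637483-5648130, plus strand) rose from 96.4 ± 8.15 to 185 ± 22.8 CPM (log2 fold change 0.94, 95% interval 0.58 to 1.30, edgeR adjusted p = 0.00828). Rela had the highest level of the 5 subunits per length at both ages, at 76.4 ± 11.4 TPM (transcripts scaled by length and by library total) in young and 137 ± 13.1 TPM in aged samples. Nfkb1 had the lowest, at 4.25 ± 0.765 and 10.5 ± 1.17 TPM, so its large fold change stood on a low level. Relb and Nfkb2 lay between them in young samples, at 40.6 ± 0.261 and 34.4 ± 7.07 TPM, and did not differ beyond their spread. The same pair stood at 67.8 ± 6.18 and 71.9 ± 9.93 TPM in aged samples, again within their spread. Rel lay above Nfkb1 and below both of these, at 19.9 ± 4.43 TPM in young and 24.7 ± 3.65 TPM in aged samples.

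Rel, which encodes c-Rel, the subunit most typical of lymphoid and myeloid cells, did not pass the test. Young samples A, B and C held 44.0, 63.6 and 78.5 CPM and aged samples 69.5, 77.6 and 96.4 CPM. Young C lay above aged A and aged B, and the order A, B, C was the same at both ages. Means were 62.1 ± 17.3 and 81.2 ± 13.8 CPM, a log2 fold change of 0.39 (edgeR adjusted p = 0.243). The 95% interval of -0.11 to 0.88 includes 0 and also a rise of the size seen for Relb, so the data do not show that Rel was level between the ages. The value moved with single young samples, to 0.20 without young A and to 0.59 without young C. Rel lies at chr11:23736847-23770970 on the minus strand.

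**Figure D2:**
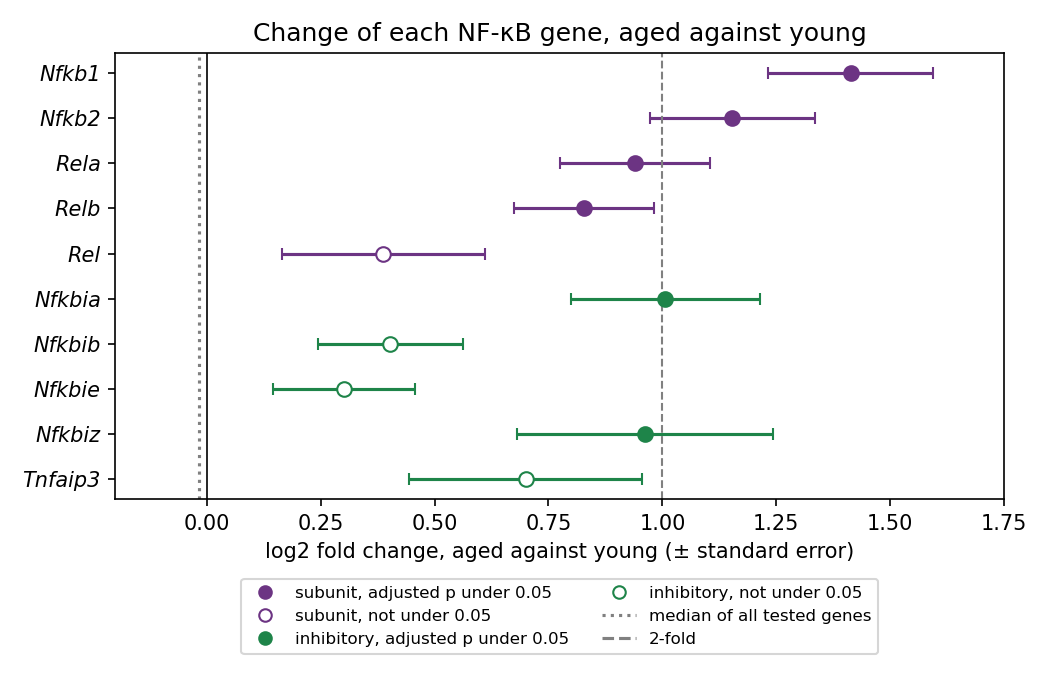
Log2 fold change of each gene, aged against young, with bars of 1 standard error from the edgeR fit. Filled points had an adjusted p under 0.05, the dotted line is the median of all genes tested (-0.02), and the dashed line marks a 2-fold difference. The fold changes run from 0.30 for Nfkbie to 1.41 for Nfkb1.

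Nfkbia encodes IκBα, the IκB that is broken down first after a signal and is made again by NF-κB itself. Nfkbia was at 1214, 1764 and 1537 CPM in young samples A, B and C and 3487, 2579 and 3005 CPM in aged samples. All aged samples lay above all young samples, and set A held both the lowest young and the highest aged value. Nfkbia (chr12:55489410-55492647, minus strand) rose from 1505 ± 277 to 3024 ± 455 CPM (log2 fold change 1.01, 95% interval 0.55 to 1.47, edgeR adjusted p = 0.0141). Per length it was the most abundant of the 10 genes, at 2264 ± 431 TPM in young and 4265 ± 532 TPM in aged samples, and it ranked at 67 in young and 36 in aged samples among 14829 genes with a known length. Its share of the summed TPM of the 5 inhibitors was 83.3 to 85.4% in young and 87.9 to 89.8% in aged samples.

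The other IκB proteins of the cytoplasm had smaller fold changes, and neither passed the test. Nfkbib, which encodes IκBβ, had young levels of 146, 134 and 153 CPM and aged levels of 207, 169 and 197 CPM. Aged samples were all higher, but the log2 fold change was 0.40 (95% interval 0.05 to 0.75) and it did not pass over all genes (edgeR adjusted p = 0.1). Nfkbib (chr7:28758251-28767512, minus strand) overlaps Sirt2 on the opposite strand. Sirt2 held 1185 to 1886 counts with a log2 fold change of -0.09 (edgeR adjusted p = 0.777), and its share in the Nfkbib count was not tested. Nfkbie, which encodes IκBε, had young levels of 185, 220 and 210 CPM and aged levels of 246, 244 and 267 CPM. Its samples also did not overlap, but young B stood close to aged B. The log2 fold change of Nfkbie (chr17:45555703-45563169, plus strand) was 0.30 (95% interval -0.04 to 0.65, edgeR adjusted p = 0.199). Per length, Nfkbib and Nfkbie did not differ beyond their spread, at 161 ± 8.29 and 163 ± 15.4 TPM in young and 200.1 ± 13.97 and 189 ± 6.11 TPM in aged samples.

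Nfkbiz encodes IκBζ, an atypical nuclear IκB that also helps to switch on genes such as Il6. Young samples A, B and C ranged widely, at 51.2, 127 and 88.8 CPM, whereas aged samples were at 184, 150 and 187 CPM. Every aged sample was higher than every young sample, and the distance between young B and aged B was small. Nfkbiz (chr16:55811375-55838899, minus strand) rose from 89.2 ± 38.2 to 174 ± 20.5 CPM (log2 fold change 0.96, 95% interval 0.34 to 1.58, edgeR adjusted p = 0.0408).

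Tnfaip3 encodes A20, a ubiquitin-editing enzyme that shuts down signalling upstream of IκB kinase. Young samples A, B and C held 91.4, 204 and 157 CPM, and aged samples held 239, 230 and 265 CPM. As for Nfkbiz, young samples spread out, young A was lowest and young B came near the aged samples, which were close together. The coefficient of variation was 37.4% in young and 7.52% in aged samples for Tnfaip3, and 42.8% and 11.8% for Nfkbiz, a difference in spread that was not tested. Tnfaip3 (chr10:19000910-19015657, minus strand) had means of 151 ± 56.4 and 245 ± 18.4 CPM and a log2 fold change of 0.70 (95% interval 0.13 to 1.26), and did not pass over all genes (edgeR adjusted p = 0.0807). It passed with DESeq2 (log2 fold change 0.71, adjusted p = 0.0382) and in edgeR without young B (0.99, adjusted p = 0.0497). Without young A the log2 fold change was 0.44 (edgeR adjusted p = 0.122), and over all alternatives its adjusted p ran from 0.0382 to 0.206.

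Several calls were lost when 1 sample was left out, mostly with fold changes of similar size. Nfkb1 and Nfkb2 passed whichever sample was left out, with edgeR adjusted p-values of 0.0019 to 0.0292 and 0.00248 to 0.0472. Without young C, 2 of 10 genes passed. Rela (log2 fold change 0.87, edgeR adjusted p = 0.0605), Relb (0.89, adjusted p = 0.0528), Nfkbia (1.02, adjusted p = 0.0726) and Nfkbiz (0.96, adjusted p = 0.139) did not, while the number of all genes tested that passed as higher went from 1156 to 151. Without aged C, Nfkbia (log2 fold change 1.02, adjusted p = 0.0542) and Nfkbiz (0.91, adjusted p = 0.12) did not pass, and without aged A, Nfkbiz did not (0.92, adjusted p = 0.0812). All 10 genes kept a higher fitted level in aged samples in each of these 6 fits.

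The balance between inhibitors and subunits was read within each sample, as the log2 ratio of CPM of a gene to that of Rela, which does not depend on library size. The 9 ratios computed can reach no smaller p than 0.1 with 3 against 3 samples, so none can pass 0.05. The Nfkbia ratio was 12.0, 17.4 and 17.6 in young and 16.8, 15.9 and 16.1 in aged samples, a log2 difference of 0.08 with overlapping samples (exact two-sided permutation test, p = 1). Nfkbiz and Tnfaip3 also overlapped, with log2 differences of 0.11 (p = 1) and -0.16 (p = 0.8) by the same exact test. The sign of these 3 differences depended on the samples used. Without young A they were -0.10 for Nfkbia, -0.27 for Nfkbiz and -0.52 for Tnfaip3, and without young B they were 0.16, 0.38 and 0.05.

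The ratios of Nfkbib and Nfkbie to Rela were lower in every aged sample. Both genes had positive log2 fold changes of 0.40 and 0.30, smaller than the 0.94 of Rela. The lower ratios thus follow from the larger rise of Rela. A gene at the median of all genes tested (-0.02) would also have a lower ratio to Rela in aged samples. The Nfkbib ratio was 1.45, 1.32 and 1.76 in young samples A, B and C and 1.001, 1.04 and 1.06 in aged samples, a log2 difference of -0.54 (exact two-sided permutation test, p = 0.1). The Nfkbie ratio was 1.83, 2.16 and 2.41 in young and 1.19, 1.51 and 1.44 in aged samples, a log2 difference of -0.63 (p = 0.1, the same exact test). For both genes, the highest aged ratio lay below the lowest young ratio, and with each sample left out the difference stayed between -0.63 and -0.42 for Nfkbib and between -0.74 and -0.53 for Nfkbie. Among subunits, the ratio of Nfkb1 to Rela was higher in every aged sample, with a log2 difference of 0.47 (p = 0.1, exact permutation). The ratios of Rel to Rela (-0.52, p = 0.3, exact permutation) and Relb to Rela (-0.11, p = 0.6, exact permutation) overlapped between the ages, and without young C they were -0.26 and 0.02.

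**Figure D3:**
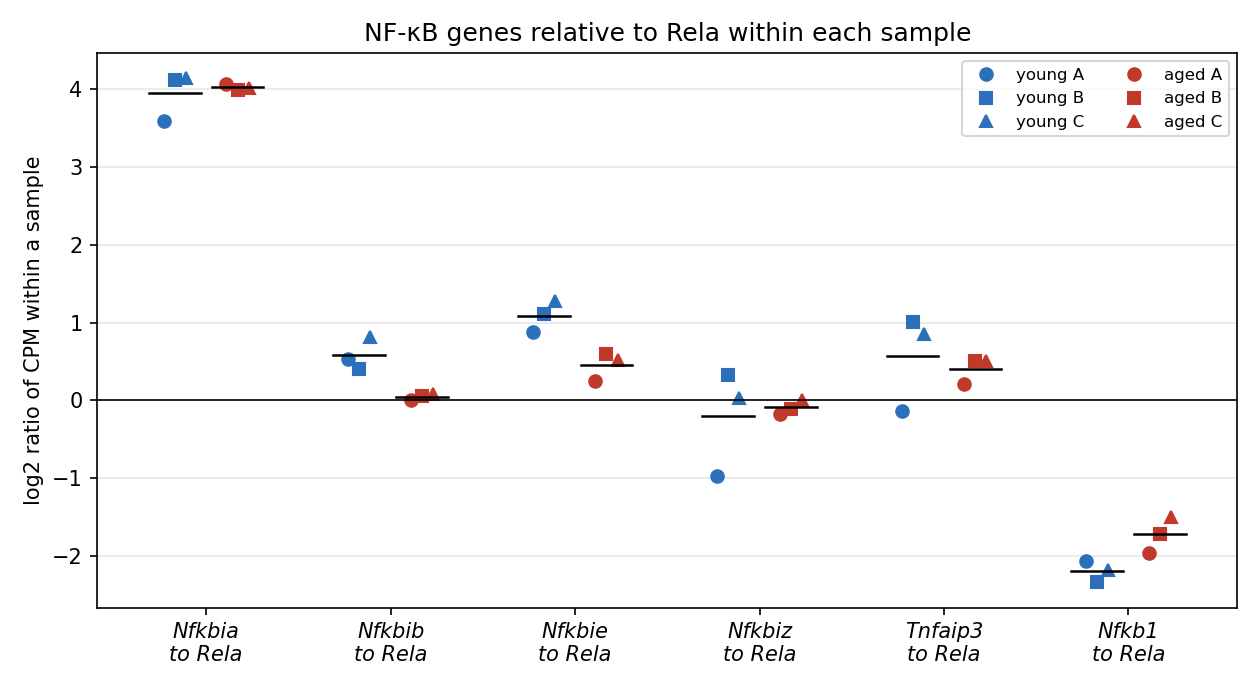
Log2 ratio of the CPM of each inhibitor, and of Nfkb1, to that of Rela within each of the 6 samples, with marker shape for the set letter and a bar at each group's mean. Aged samples lie below all young samples for Nfkbib and Nfkbie, above them for Nfkb1, and among them for Nfkbia, Nfkbiz and Tnfaip3.

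Summed per length, the 5 subunits came to 186, 179 and 161 TPM in young and 337, 303 and 295 TPM in aged samples. The 5 inhibitors came to 2297, 3215 and 2532 TPM in young and 5420, 4382 and 4627 TPM in aged samples. Both sums were higher in all aged samples. The inhibitor sum was 12.3, 17.9 and 15.7 times the subunit sum in young and 16.1, 14.5 and 15.7 times in aged samples. The proportion thus overlapped between the ages. The size of these multiples depends on the exon lengths used. The inhibitor sum is dominated by Nfkbia. Without Nfkbia, the other 4 inhibitors came to 2.06, 2.62 and 2.48 times the subunits in young and 1.64, 1.74 and 1.87 times in aged samples. These multiples were lower in every aged sample (a description, with no test). The sum of these 4 inhibitors was itself higher in aged samples. It was 382, 470 and 400 TPM in young A, B and C and 553, 528 and 551 TPM in aged A, B and C.

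Around these genes, the pathway was described with lists of further members. The 3 subunits of the IκB kinase complex, which marks IκB for destruction, did not pass by edgeR, DESeq2 or limma-voom (0 of 3 each), and 2 of 3 were higher at an unadjusted p under 0.05 in edgeR, as were 18.1% of all genes tested. Ikbkb, which encodes the catalytic IKKβ, measured 41.3 ± 2.10 CPM in young samples against 55.9 ± 9.29 CPM in aged ones (log2 fold change 0.44, edgeR adjusted p = 0.0946), and all 3 genes had every aged sample above every young sample, as had 19.2% of all genes tested. Of 18 adaptors and kinases upstream, 4 passed as higher and 0 as lower by edgeR, against 9.73% and 7.97% of all genes tested, with a median log2 fold change of 0.31. DESeq2 and limma-voom also called 0 as lower, and 1 was lower at an unadjusted p under 0.05, against 16.5% of all genes tested. These were Irak2 and Irak3 (1.35 and 1.27, edgeR adjusted p = 0.00283 and 0.00319), of which Irak3 encodes an inhibitory relative of the IRAK kinases, and Traf1 and Traf6 (1.19 and 0.86, edgeR adjusted p = 0.00918 and 0.0149). Of 8 genes of the non-canonical arm, 2 passed as higher and 0 as lower by edgeR, against the same 9.73% and 7.97%: Tnfrsf1b, which encodes TNF receptor 2, with means of 261 ± 17.7 and 814 ± 90.7 CPM (log2 fold change 1.64, edgeR adjusted p = 0.00127), and Birc3, a ubiquitin ligase of the receptor complex (0.61, edgeR adjusted p = 0.0337). DESeq2 called 1 gene of this arm as lower, limma-voom called 0, and 1 was lower at an unadjusted p under 0.05 in edgeR. That last gene, chosen after its values were seen, was Cd40, the receptor of CD40 ligand, at 38.4 ± 12.1 CPM in young samples and 23.0 ± 5.93 CPM in aged samples (log2 fold change -0.74, edgeR adjusted p = 0.0726), with every aged sample below every young sample.

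Of 20 further inhibitors and regulators, 7 passed as higher and 1 as lower, against 9.73% and 7.97% of all genes tested, with a median log2 fold change of 0.46. Tnip1, an A20-binding protein, measured 27.5 ± 2.42 CPM in young samples against 85.2 ± 11.9 CPM in aged ones (log2 fold change 1.63, edgeR adjusted p = 0.00127). N4bp1 followed at 1.45 (edgeR adjusted p = 0.00147). Tax1bp1, another partner of A20, rose by 0.58 on the log2 scale (edgeR adjusted p = 0.0495). Commd1, which promotes breakdown of RelA, fell from 74.9 ± 8.02 to 46.8 ± 1.38 CPM (log2 fold change -0.68, edgeR adjusted p = 0.0185).

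The list of known NF-κB target genes, mainly cytokines, chemokines and survival genes, had 33 tested members. The list was chosen with earlier results of these data known. It holds cytokine genes that the paper reported as higher in these aged macrophages, so its counts are a description and not independent support. Of the 33 tested, 26 passed as higher and 0 as lower by edgeR, with a median log2 fold change of 1.19. Of all genes tested, 9.73% passed as higher. As lower, 7.97% of all genes tested passed. At an unadjusted p under 0.05 1 target was lower, against 16.5% of all genes tested, and DESeq2 called 1 and limma-voom 0 as lower. Csf3, which encodes G-CSF, measured 20.5 ± 7.18 CPM in young samples against 158 ± 57.7 CPM in aged ones (log2 fold change 2.94, edgeR adjusted p = 0.00136). Csf2 had the largest fitted value (3.52, edgeR adjusted p = 0.00623), which rests on 5, 2 and 3 counts in young samples and 26, 56 and 27 counts in aged samples. The smallest rises that passed were Birc3 at 0.61 and Marcksl1 at 0.63 (edgeR adjusted p = 0.0337 and 0.0330). Traf1 and Birc3 stand in more than one list, and many targets answer to other factors as well.

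**Figure D4:**
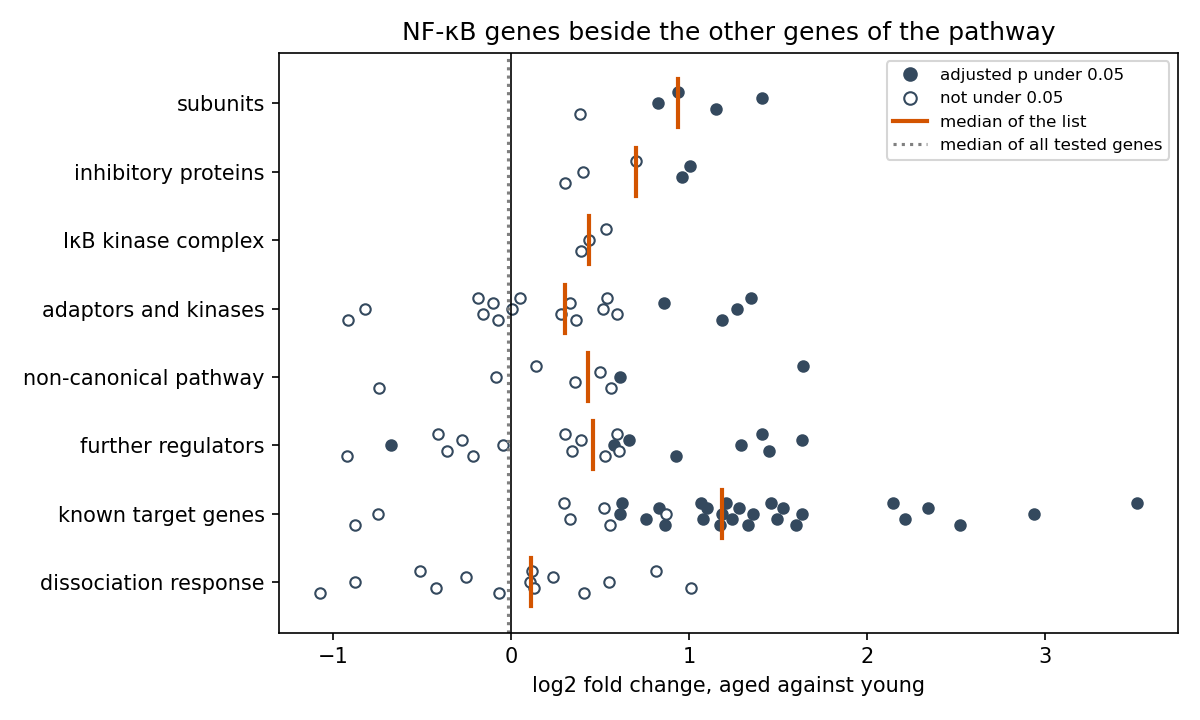
Log2 fold change, aged against young, of every tested gene of 8 lists (the subunits, the inhibitory proteins, 5 further pathway lists and the dissociation response), with the median of the list (orange bar) and of all genes tested (dotted line, -0.02). Filled points had an adjusted p under 0.05. The medians of these lists run from 0.11 for the dissociation response to 1.19 for the known target genes.

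Values of the libraries that stand beside these results were as follows. Totals were 15270103 to 17927483 counts. After TMM scaling 1 count equals 0.0553 to 0.0701 CPM, and every NF-κB gene had at least 290 counts in each sample. Of the sort markers, Itgam (CD11b) rose from 376 ± 36.7 to 750 ± 63.7 CPM (log2 fold change 0.99, edgeR adjusted p = 0.00735), and Adgre1 (F4/80) fell from 329 ± 35.3 to 204 ± 34.8 CPM (-0.69, edgeR adjusted p = 0.0292). Of 11 tested neutrophil markers, 3 passed as higher by edgeR, against 9.73% of all genes tested, and 10 of 11 had a log2 fold change above 0. Their summed level, led by S100a9, was 534 to 958 CPM in young and 713 to 1307 CPM in aged samples. By the methods of the study, the sort did not exclude Ly6G+ cells, so a small share of neutrophils may be present. Keratinocyte markers summed to 0.727 to 1.06 CPM in young samples, to 2.24 and 1.73 CPM in aged A and C and to 175 CPM in aged B, led by Krt14, while Krt1 and Dsp were at 0 in all young samples. Of 8 macrophage markers, led by Lyz2, 1 passed as higher and 1 as lower by edgeR, against 9.73% and 7.97% of all genes tested. DESeq2 called 1 as higher and 2 as lower. Their summed level was 28878 to 43406 CPM in young and 21531 to 26275 CPM in aged samples, with a median log2 fold change of -0.22. Every aged sample lay below every young sample for 3 of 8 and above for 2 of 8, against 2254 and 2284 of all 11878 genes tested. Of 5 erythroid markers, led by Hbb-bs, 4 passed as lower by edgeR, against 7.97% of all genes tested, and all 5 had a log2 fold change below 0, summing to 153 to 490 CPM in young and 41.8 to 152 CPM in aged samples. B cell markers, led by Ighm, summed to 60.4 to 158 CPM in young and 22.9 to 40.5 CPM in aged samples, and dendritic cell markers, led by Ccr7, to 16.1 to 55.1 and 31.7 to 93.8 CPM. Mast cell markers, led by Cpa3, summed to 26.5 to 96.2 CPM in young samples and to 67.2, 1.02 and 0.741 CPM in aged A, B and C. Fibroblast markers, led by Col3a1, summed to 120 CPM in aged B and to 13.2 to 41.1 CPM in the other 5 samples. Endothelial markers, led by Pecam1, summed to 11.7 to 12.6 CPM in young and 25.9 to 31.1 CPM in aged samples. Pecam1 rose (log2 fold change 1.69, edgeR adjusted p = 0.0022), but it was the only 1 of 3 tested endothelial markers with a log2 fold change above 0. The median of these 3 was -0.38, so the higher sum does not describe the list. T cell markers, led by Nkg7, summed to at most 4.09 CPM in any sample. Without aged B, 6 of 10 genes passed, and they were those that passed with all samples. Over all genes tested in that fit, 894 passed as higher and 608 as lower. Leaving out this sample does not remove the marker differences between the remaining samples. The part of other cell types in the NF-κB results was not tested.

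Enzymatic release of cells from tissue can itself switch on immediate early and heat shock genes. Of 14 such genes, 0 passed in either direction by edgeR, against 9.73% of all genes tested as higher and 7.97% as lower, and their median log2 fold change was 0.11. At an unadjusted p under 0.05, 1 was higher and 2 were lower, against 18.1% and 16.5% of all genes tested. DESeq2 also called 1 as higher and 2 as lower, and limma-voom called 0. Their summed level differed by set: it was 18447 CPM in young A and 16278 CPM in aged A, and 55956 to 81531 CPM in the other 4 samples. Hspa1a, which encodes the inducible heat shock protein HSP70, had 4797, 28138 and 35434 CPM in young A, B and C, against 3519, 19764 and 27764 CPM in aged A, B and C. With set A left out at both ages, an alternative chosen after seeing the data, 5 of the 10 NF-κB genes passed as higher, and Nfkbiz (log2 fold change 0.64, edgeR adjusted p = 0.0524) did not. Nfkbia then had a log2 fold change of 0.76 (edgeR adjusted p = 0.0292). The part of the dissociation response in these genes was not tested further.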

How the data were processed

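RNA of macrophages sorted from Day 3 wounds was sequenced in 3 young and 3 aged samples. The libraries were made with SMART-Seq v4, which does not mark strand. Per the submitters' notes and the methods, reads were aligned with STAR 2.7.3a to mm10 and quantified on Ensembl transcripts (release 102) in Partek Flow, and the authors deposited expected counts per gene without normalisation, of genes with a total of at least 10. Whether counting used strand is not given in the sources used here. A second deposited table of the DESeq2 comparison by the authors (scaled counts, p-values, FDR, fold changes) was not used.

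Expected counts were rounded and tested in R 4.3.3 with edgeR 4.0.16, using TMM scaling, filterByExpr by age (11878 genes tested, 3290 not) and quasi-likelihood F tests between the ages, adjusted by Benjamini-Hochberg across all of these genes. Library totals were 15270103 to 17927483 counts, and CPM used the TMM-scaled sizes (14274197 to 18078584). Log2 ratios used a prior count of 2 and an exact permutation test. TPM used the joined length of all annotated exons of a gene in GENCODE M21, known for 97.8% of genes. That length can exceed the length of a single transcript, so TPM comparisons between genes depend on it. The common biological coefficient of variation was 0.239.

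The 10 members and all lists were chosen with earlier results of these data known. Named genes were all 10 members; from each pathway list the 2 highest and 2 lowest log2 fold changes that passed, or, where none passed, the gene of highest mean CPM; and from each marker list the gene of highest mean CPM and defining markers at 0. Adgre1, Cd40 and the overlapping genes stand outside this rule and were chosen after their values were seen. Alternatives were DESeq2 size factors, DESeq2 1.42.0, limma-voom 3.58.1, other thresholds, no low-count filter, a minimum of 10 counts per sample, a prior count of 0.5, the set letter as a block, and each sample left out. The fits were tested on simulated data. Samples of an age differed by more than sampling noise and were all counted. Figures were drawn in matplotlib 3.10.9 (Python 3.11.15, tables read by pandas 2.3.3).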

Additional observations from a re-analysis of the deposited data

How the results depend on the processing

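In none of the alternatives run did the fitted direction of any of the 10 genes change, whereas the ratios of Nfkbia, Nfkbiz and Tnfaip3 to Rela changed sign without young A or young B, and that of Relb without young C. 6 of 10 genes passed with DESeq2 size factors, limma-voom, no filter, at least 10 counts in every sample and the replicate block, and 7 with DESeq2, where Tnfaip3 passed (log2 fold change 0.71). With each sample left out in turn, log2 fold changes ranged from 0.85 to 1.04 for Rela, 0.76 to 0.89 for Relb, 0.88 to 1.15 for Nfkbia, 0.68 to 1.32 for Nfkbiz, 0.44 to 0.99 for Tnfaip3 and 0.20 to 0.59 for Rel. The genes that passed as higher then numbered 2 to 7 of the 10, with 2 to 4 subunits and 0 to 3 inhibitors, and over all genes 151 to 1574 were higher and 67 to 1128 lower. The lowest of these counts came without young C.

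Asking for more than 2-fold left 3 of the 10 (2 subunits, 1 inhibitor) and 545 higher and 499 lower genes over all. An adjusted p under 0.01 left 3 (3 subunits, 0 inhibitors), with 215 higher and 91 lower, and glmTreat against 1.5-fold left 1 (1 subunit, 0 inhibitors), with 152 higher and 58 lower. With set A left out at both ages, an alternative chosen after seeing the data, 5 passed (4 subunits, 1 inhibitor), Nfkbiz had a log2 fold change of 0.64, and 1735 genes were higher. The cause of these differences was not tested, except that the stricter thresholds call fewer genes by construction.

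Set letters were not taken as pairs, since the labels do not say what they mark and deviations from the age mean correlated at 0.18, -0.02 and 0.11 between the young and aged samples of sets A, B and C, so not in every set. Set A did share the low heat shock level at both ages. With the letter as a replicate block, 1202 genes were higher and 912 lower, and no call among the 10 genes changed (Nfkbiz adjusted p = 0.0386 and Tnfaip3 adjusted p = 0.0551 by edgeR). Not every sample correlated best with its own letter. Changing the scaling moved the median log2 fold change of all genes from -0.02 to -0.01. With 3 samples an age, the intervals of Rel, Nfkbib and Nfkbie are wide relative to their fold changes.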

Other observations

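Aged minus young log2 CPM within a set letter, given as values only since what the letters mark is not stated, ranged most widely for Nfkbiz, Tnfaip3 and Nfkbia among the 10 genes. Nfkbiz stood at 1.84, 0.23 and 1.07 in sets A, B and C, Tnfaip3 at 1.39, 0.17 and 0.76, and Nfkbia at 1.52, 0.55 and 0.97. For Nfkb2 the values were 1.11, 1.32 and 1.05, and for Nfkb1 1.14, 1.30 and 1.77. Set B gave the smallest value for Nfkbia, Nfkbib, Nfkbie, Nfkbiz, Tnfaip3, Rela and Rel, and not for Nfkb1, Nfkb2 or Relb.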
